A study of Rattus norvegicus with 3 samples.

Results

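The 30 genes described here encode the enzymes that build cholesterol from acetyl-CoA, the proteins that sense sterol and switch those enzymes on, and the proteins that move and store the product. They were chosen by name as members of this pathway, and each was read by its brightest probe, found through the probe's transcript accession. All 30 of 30 had a probe, out of 15162 genes named on the array, and all were well above background on all 3 arrays. In 27 genes there was 1 probe, and Fdps, Stard4 and Npc1 had 2.

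Cholesterol synthesis runs from acetyl-CoA through mevalonate and the isoprenoid diphosphates to squalene, which is closed into lanosterol and then trimmed to cholesterol. Most of its enzymes are switched on by the transcription factor SREBP-2, the product of Srebf2. SREBP-2 is made as a membrane protein of the endoplasmic reticulum, escorted by Scap and held back by Insig proteins while sterol is plentiful, and cut free by proteases when sterol runs low. Heart muscle cells both make cholesterol and take it up from lipoproteins.

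The cells were neonatal rat ventricular cardiomyocytes in culture, and RNA pooled within each group was labelled with Cy3 and read on 1 Agilent array per group. The Control group received the empty vector, the HSD1 group the expression vector for 11β-HSD1, and the HSD1+BVT group the same vector together with BVT.2733. 11β-HSD1 turns inactive glucocorticoid back into the active hormone inside the cell, and BVT.2733 inhibits it. Neither dose nor exposure time, nor the vector's promoter, nor the species of its insert, nor how many cultures were pooled, is stated in the sources used here. With 1 array a group there was no replicate, no test was run, and every difference compares 2 arrays. Per the file headers, the Control and HSD1 arrays belong to scan 1 and the HSD1+BVT array to scan 2; the effect of the scan and that of the inhibitor cannot be told apart.

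A log2 level is the log2 processed signal minus the log2 of the array's percentile 75 of that signal, and a log2 ratio is the difference of 2 such levels of the same probe. The percentile was 1169 to 1549 over the arrays, and 81.2% to 82.5% of spots were well above background. Hsd11b1, the targeted gene, was read by 1 probe at log2 levels of 3.39 (Control), 3.86 (HSD1) and 3.76 (HSD1+BVT). All 10 cardiomyocyte markers were well above background on each array, with a log2 summed level of 8.55, 8.72 and 8.71 in that order. Fibroblast markers were present too, 8 of 8, at 7.57, 7.57 and 7.51. All 6 macrophage markers were measured on the HSD1 array and 5 on each of the others, at 0.06, 0.13 and 0.37. Of 5 hepatocyte markers, Alb, Apoa1 and Cyp7a1 were not well above background on any array, whereas Ttr and Serpina1 were. Of 4 adrenal cortical markers 3, 2 and 2 were measured, at a summed level of -1.09, -0.74 and -0.81, and Cyp11a1 was not well above background on any array.

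Adding BVT.2733 to the vector asks which levels the inhibitor changes, and the sterol genes were higher with it almost throughout. Against HSD1, 28 of 30 had a ratio above 0, the median log2 ratio was 0.37 (1.29-fold), and 10 were at least 1.5-fold higher and none 1.5-fold lower. Across all 11702 genes tested the median was 0.01, 51.2% lay above 0, 5.38% were at least 1.5-fold higher and 3.72% at least 1.5-fold lower. Most sterol genes had bright probes, and among the brighter 5851 genes 2.82% were at least 1.5-fold higher. No sterol gene reached 2-fold, which 1.51% of all genes did upward and 0.581% downward. The split of all genes at 1.5-fold was 629 higher to 435 lower, and 197 to 306 with the normexp background correction, under which 25 of the 30 had a ratio above 0, 9 were at least 1.5-fold higher and none was 1.5-fold lower.

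The highest ratio belonged to Insig1, the sterol-regulated protein that retains SREBP-2 and is itself switched on by it. Its log2 levels in Control, HSD1 and HSD1+BVT were 1.30, 1.08 and 1.91, and the ratio of the last to HSD1 was 0.83, or 1.78-fold. Only 2.44% of genes had a higher ratio. The spread between spots is the only error at hand: for probes as bright as this one, printed several times per array, the SD of a ratio of single spots was 0.055. That SD holds neither cultures nor pools. Its relative Insig2, which also holds SREBP-2 back, had levels of -1.17, -1.18 and -0.85 and a ratio of 0.32.

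The genes of SREBP-2 itself, its escort and its protease differed less. Srebf2 had levels of 1.77, 1.90 and 2.04 in Control, HSD1 and HSD1+BVT, a ratio of 0.14 to HSD1. Scap, the escort, stood at -1.29, -1.09 and -1.16. Mbtps1, the site-1 protease that makes the first cut, stood at 0.82, 0.74 and 0.72. For Scap and Mbtps1 the HSD1+BVT array was below the HSD1 array, with ratios of -0.07 and -0.03, and these were the 2 sterol genes below 0.

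**Figure D1:**
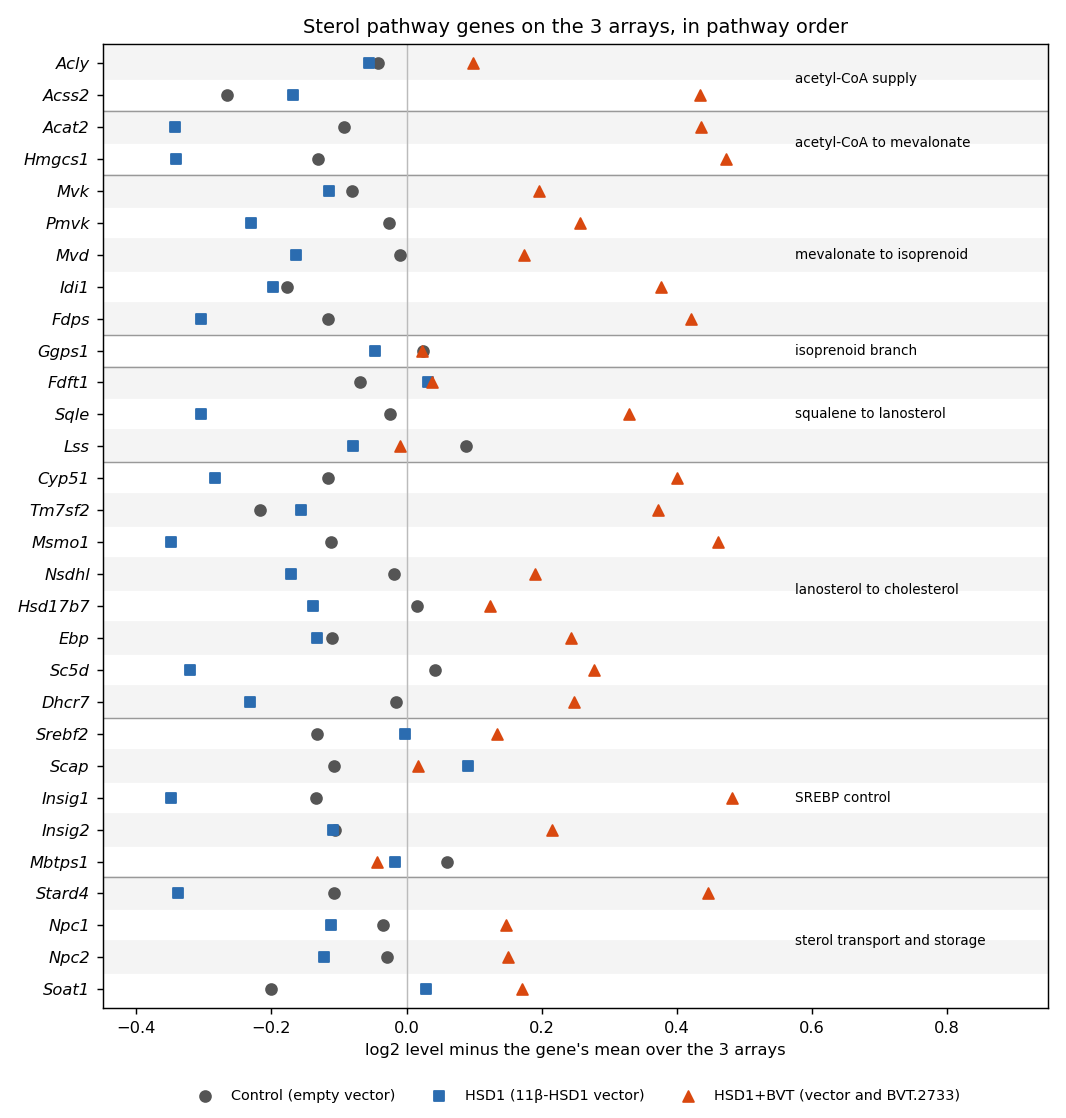
Each row is 1 of the 30 genes in pathway order; the x axis gives its log2 level on each array minus its mean over the 3 arrays (circle Control, square HSD1, triangle HSD1+BVT, 1 array each, no error bar). In 21 of 30 rows the square is leftmost and the triangle rightmost; Fdft1, Lss, Ggps1, Scap and Mbtps1 are among the 9 without this order.

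The 2 enzymes that lead from acetyl-CoA toward mevalonate had a median ratio of 0.80. Acat2, the cytosolic thiolase that joins a pair of acetyl-CoA molecules, had levels of 2.83 (Control), 2.58 (HSD1) and 3.36 (HSD1+BVT), a ratio of 0.78 to HSD1. Hmgcs1, the cytosolic HMG-CoA synthase, had levels of 4.52, 4.31 and 5.12 and a ratio of 0.81, or 1.76-fold. In both genes the HSD1 array was the lowest and the HSD1+BVT array the highest. Of the enzymes that supply acetyl-CoA, Acss2, which makes it from acetate, had levels of -1.84, -1.75 and -1.14 and a ratio of 0.60. Acly, which makes it from citrate, had levels of 3.38, 3.37 and 3.52 and a ratio of 0.16.

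The 5 enzymes between mevalonate and farnesyl diphosphate had ratios above 0, with a median of 0.49, but that of Mvk turned to -0.07 with the normexp correction. Fdps, which makes farnesyl diphosphate, had levels of 2.73, 2.54 and 3.27 and a ratio of 0.73, and its other probe gave 0.76. Idi1, the isomerase of the isoprenoid units, had levels of 3.49, 3.47 and 4.04 and a ratio of 0.57, just under 1.5-fold. The kinases Mvk and Pmvk and the decarboxylase Mvd had ratios of 0.31, 0.49 and 0.34. The Mvk probe was dim, brighter than 26.5% of genes, where the SD of a ratio of single spots was 0.12. Ggps1, which turns farnesyl diphosphate away from sterols toward the longer chain used for prenylating proteins, had a ratio of 0.07, and -0.06 with normexp.

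The enzymes around squalene differed from each other. Sqle, the epoxidase that opens the way to ring closure, had levels of 3.75 (Control), 3.47 (HSD1) and 4.10 (HSD1+BVT), a ratio of 0.63 to HSD1. Fdft1, the squalene synthase just before it, had levels of 3.64, 3.74 and 3.75 and a ratio of 0.01, which was -0.09 with quantile normalization. Lss, the lanosterol synthase just after it, had levels of 1.34, 1.18 and 1.25 and a ratio of 0.07. The ratios of Fdft1 and Lss were thus within 2 SD of a single-spot ratio and that of Sqle was not, each on 1 probe brighter than at least 82.2% of genes.

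All 8 enzymes from lanosterol to cholesterol had ratios above 0, with a median of 0.50. Msmo1, the methylsterol monooxygenase, had levels of 3.51, 3.28 and 4.09 and a ratio of 0.81. Sc5d, a sterol desaturase, had levels of -0.90, -1.26 and -0.66, and its ratio was 0.60. Tm7sf2, a sterol reductase, had a ratio of 0.53, and Dhcr7, which reduces the last double bond on its branch, had one of 0.48. Lower in the order were the isomerase Ebp at 0.38, and Nsdhl and Hsd17b7, which take part in removing methyl groups, at 0.36 and 0.26.

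Cyp51, the lanosterol demethylase, and Stard4, a soluble carrier of sterol between membranes, are the 2 genes whose probes were printed 10 times on each array. The 10 Cyp51 spots ran from 1.23 to 1.32 in Control (median 1.27), from 1.06 to 1.13 in HSD1 (median 1.12) and from 1.73 to 1.84 in HSD1+BVT (median 1.79). No spot of one array overlapped those of another. The log2 ratio of HSD1+BVT to HSD1 was 0.68 ± 0.01 (SE over spots), and that of HSD1 to Control was -0.17 ± 0.01. Stard4 spots ran from 0.48 to 0.60 in Control, from 0.27 to 0.37 in HSD1, where 9 spots were used, and from 1.05 to 1.15 in HSD1+BVT, again with no overlap. The ratios were 0.78 ± 0.01 and -0.23 ± 0.02. These errors describe repeated spots on the same array and not repeated cultures.

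**Figure D2:**
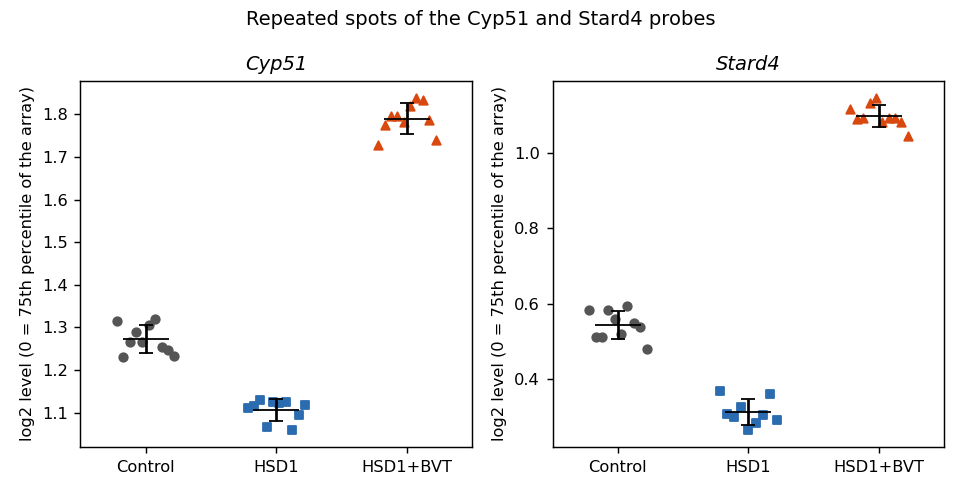
Each point is 1 spot of the Cyp51 (left) or Stard4 (right) probe; the y axis is the log2 level, with 0 at the array's percentile 75, and the bars give the mean and SD over the 9 or 10 spots. The spots of the 3 arrays do not overlap, with HSD1 lowest and HSD1+BVT highest for both genes.

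The remaining transport and storage genes had smaller ratios. Npc1 and Npc2, which export cholesterol from lysosomes, had ratios of 0.26 and 0.27, and the other Npc1 probe gave 0.39. Soat1, which esterifies cholesterol for storage, was dim, brighter than 22.1% of genes, and had a ratio of 0.14, which turned to -0.21 with normexp. The other Stard4 probe, at -2.35, -3.11 and -2.51, gave 0.60 beside 0.78.

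In all, 24 of 30 genes were higher in HSD1+BVT than in HSD1 by more than 2 SD of a single-spot ratio at their brightness, and none was lower by that much. The error that Feature Extraction itself assigns to a spot is larger, and by it 14 of 30 were higher by more than 2 errors of the ratio. The share of all genes past either bar is not given here, so neither count sets the sterol genes apart. That SD was 0.055 to 0.12 from the brightest to the dimmest probes, whereas 95% of all genes tested lay between -0.66 and 0.82. Markers of other cell types also differed between these arrays. Smooth muscle and pericyte markers, 6 of 6 measured, had a median ratio of -0.49 and log2 summed levels of 5.22, 5.38 and 4.93 in Control, HSD1 and HSD1+BVT. Endothelial markers, 5 of them measured, had a median ratio of -0.30 although their summed level, led by Kdr, was 2.38, 3.01 and 3.27. Cardiomyocyte markers had a median of 0.03. Their part in the sterol result was not tested, and in RNA from pooled cells a change in the share of a cell type and a change in RNA per cell cannot be told apart.

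Promoter sequence was compared because most of these genes were higher together. RefSeq windows of the 250 bases before the annotated gene start (GRCr8) were held for 26 of the 30 genes, all but Pmvk, Fdft1, Sqle and Stard4. The box read by NF-Y, a partner of SREBP-2 on sterol promoters, is ATTGG on one strand and CCAAT on the other. It occurred in 20 of 26 genes (76.9%), against 34.0% of 33469 promoters in the table and 36.7% of 9474 genes measured on all arrays. A gene counted once, if any of its windows held the motif, whereas the 33469 are single promoters, so the nearer comparison is with measured genes. The GC box CCGCCC, or GGGCGG on the other strand, which Sp1 reads, occurred in 22 of 26 (84.6%), against 30.5% of promoters and 54.5% of measured genes. The sterol regulatory element in the form TCACNCCAC occurred in none of the 26 genes and in 0.974% of all promoters. The looser form TCACNNNAC, which includes the first, occurred in 4 of 26 (15.4%), namely Hmgcs1, Nsdhl, Hsd17b7 and Insig1, against 9.30% of promoters. Both strands were searched, and a match describes letters and not binding.

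Among the 8 genes with a window that were at least 1.5-fold higher in HSD1+BVT than in HSD1, 6 held the NF-Y box and 8 the GC box. Among the other 18 genes, 14 held each of them. The windows shown are those of Hmgcs1, Insig1, Fdps, Msmo1 and Lss, chosen after the search because each holds both boxes. They are not simply the genes with the highest ratios: Acat2, with a higher ratio than Fdps, held 2 GC boxes and no NF-Y box, and Cyp51 1 GC box and no NF-Y box, and Lss had a ratio of 0.07. They lie at chr2:53382054-53382303 on the plus strand (Hmgcs1), chr4:8057770-8058019 on the minus strand (Insig1), chr2:176804817-176805066 on the minus strand (Fdps), chr16:29746863-29747112 on the plus strand (Msmo1) and chr20:12118231-12118480 on the minus strand (Lss). Capitals mark the NF-Y box, the GC box and the looser sterol element, and each window is written 5′ to 3′ toward the gene.
Hmgcs1: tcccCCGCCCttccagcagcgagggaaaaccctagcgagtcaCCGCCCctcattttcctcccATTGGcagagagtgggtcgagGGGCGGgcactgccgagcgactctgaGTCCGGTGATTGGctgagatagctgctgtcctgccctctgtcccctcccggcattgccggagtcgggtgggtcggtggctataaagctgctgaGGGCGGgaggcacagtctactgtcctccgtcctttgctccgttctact
Insig1: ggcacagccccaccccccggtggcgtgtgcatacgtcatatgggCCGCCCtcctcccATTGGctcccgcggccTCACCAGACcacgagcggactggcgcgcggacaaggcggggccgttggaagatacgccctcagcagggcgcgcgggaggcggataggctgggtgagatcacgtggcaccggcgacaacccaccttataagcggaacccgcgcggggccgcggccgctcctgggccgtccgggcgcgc
Fdps: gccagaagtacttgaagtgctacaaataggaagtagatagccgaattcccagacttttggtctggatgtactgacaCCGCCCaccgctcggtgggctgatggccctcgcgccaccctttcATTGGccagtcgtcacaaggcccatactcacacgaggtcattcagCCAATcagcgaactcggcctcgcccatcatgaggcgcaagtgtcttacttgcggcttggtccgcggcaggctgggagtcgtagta
Msmo1: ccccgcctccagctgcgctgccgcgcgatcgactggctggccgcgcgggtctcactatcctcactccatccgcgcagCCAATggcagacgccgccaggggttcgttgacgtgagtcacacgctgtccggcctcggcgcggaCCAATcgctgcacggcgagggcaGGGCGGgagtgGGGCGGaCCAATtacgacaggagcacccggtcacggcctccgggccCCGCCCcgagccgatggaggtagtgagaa
Lss: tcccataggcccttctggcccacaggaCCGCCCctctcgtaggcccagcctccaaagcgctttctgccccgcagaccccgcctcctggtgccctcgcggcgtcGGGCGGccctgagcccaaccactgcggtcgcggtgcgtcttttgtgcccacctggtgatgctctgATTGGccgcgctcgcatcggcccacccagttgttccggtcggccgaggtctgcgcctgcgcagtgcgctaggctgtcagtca
The Hmgcs1 window holds 2 NF-Y boxes, the nearer one sharing a base with the looser sterol element at 141 to 133 bases before the start. In Insig1 that element lies at 177 to 169, with the NF-Y box at 193 to 189. Msmo1 has 3 NF-Y boxes and 3 GC boxes, Fdps 2 and 1, and Lss 1 and 2.

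**Figure D3:**
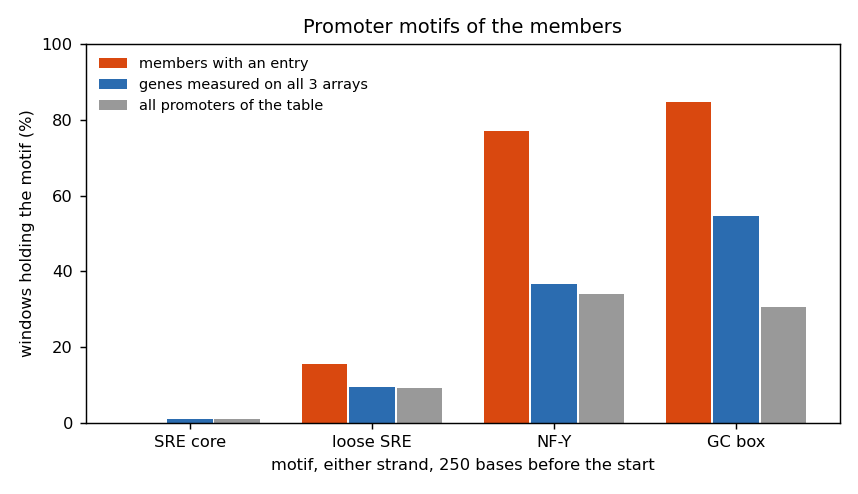
Bars give the percentage holding each motif on either strand in the 250 bases before the gene start. They are shown for the 26 sterol genes with a window, for 9474 genes measured on all arrays and for all 33469 promoters. The first 2 count genes, each once if any of its windows holds the motif, and the last counts promoters. The NF-Y bar of the sterol genes stands at 76.9% beside 36.7% and 34.0%, and the GC box bar at 84.6% beside 54.5% and 30.5%.

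The vector alone was compared with the empty vector to see what 11β-HSD1 changes, and here most sterol genes were slightly lower. Of 30, 24 had a ratio below 0, the median was -0.12, and none was 1.5-fold or 2-fold away in either direction. Across 11872 genes the median was 0.06, with 5.58% at least 1.5-fold higher, 2.35% at least 1.5-fold lower, 1.33% at least 2-fold higher and 0.548% at least 2-fold lower. The all-gene split at 1.5-fold was 663 higher to 279 lower, against 404 to 406 after quantile normalization, 399 to 424 with cyclic loess and 399 to 399 in the authors' deposited values, while the sterol median stayed below 0 in every setting tried, from -0.18 to -0.11.

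Sc5d was lowest at -0.36, followed by Sqle at -0.28, Acat2 at -0.25, Msmo1 at -0.24 and Stard4 at -0.23. The other Stard4 probe gave -0.76. Hmgcs1 and Insig1, the pair with the highest ratios to HSD1 after BVT.2733, both stood at -0.21. In all 14 genes were lower than Control by more than 2 SD of a single-spot ratio, and 3 were higher by that much. The share of all genes past that bar is not given here, and 95% of all genes tested lay between -0.57 and 0.79. By the larger error of Feature Extraction none of the 30 differed by 2 errors. The genes above 0 were Soat1 at 0.23, Scap at 0.20, Srebf2 at 0.13, Fdft1 at 0.10, Acss2 at 0.10 and Tm7sf2 at 0.06. Endothelial markers had a median ratio of 0.80 here over 5 measured genes, and their part in the sterol values was not tested.

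**Figure D4:**
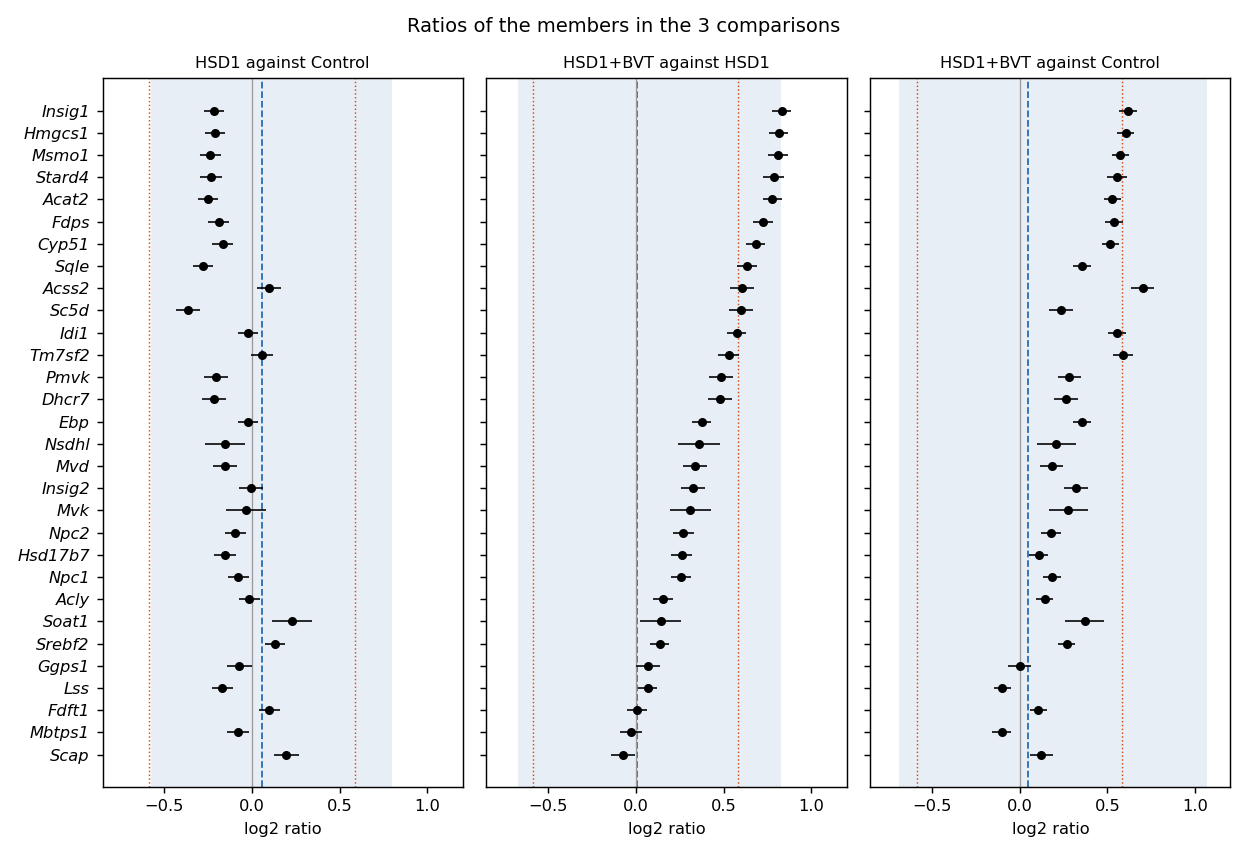
Points are log2 ratios of the 30 genes in 3 comparisons, ordered by the middle panel, with bars of 1 SD of a single-spot ratio at that brightness; the shaded band holds 95% of all genes tested, the dashed line is their median and the dotted lines are 1.5-fold. In the middle panel 28 points lie right of 0, in the left panel 24 lie left of it.

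Cells with both vector and inhibitor stood above the empty vector as well, by less than above the vector alone. The median log2 ratio of HSD1+BVT to Control was 0.28, 27 of 30 genes lay above 0, and 4 were at least 1.5-fold higher with none 1.5-fold lower. Across 11716 genes the median was 0.05, with 9.96% at least 1.5-fold higher and 3.64% at least 1.5-fold lower. Among the brighter 5858 genes, where 27 of the 30 lie, the shares were 4.37% and 2.10%. None reached 2-fold, against 2.94% of genes upward and 0.751% downward. The split of all genes at 1.5-fold was 1167 higher to 427 lower, against 712 to 707 after quantile normalization, 784 to 658 with cyclic loess and 704 to 690 in the authors' deposited values. With quantile normalization, cyclic loess, the authors' deposited values or centring on the median of all genes, 1 of 30 was at least 1.5-fold higher, namely Acss2.

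The 4 genes were Acss2 at 0.70, Insig1 at 0.62, Hmgcs1 at 0.60 and Tm7sf2 at 0.59. Acss2 and Tm7sf2 had been near Control with the vector alone, whereas Insig1 and Hmgcs1 had been below it. Msmo1 stood at 0.57, Stard4 and Idi1 at 0.55, Fdps at 0.54, Acat2 at 0.53 and Cyp51 at 0.52. The other probe of Stard4 gave -0.16, the opposite direction. Sc5d, which was lowest with the vector, stood at 0.24 against Control. Mbtps1 and Lss were at -0.10 each, and Ggps1 was as in Control. Endothelial markers had a median ratio of 0.51, smooth muscle and pericyte markers one of -0.39 and macrophage markers one of 0.59, and their part in the sterol values was not tested.

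Set in order over the 3 arrays, 21 of 30 sterol genes (70.0%) were lowest with HSD1, between in Control and highest with HSD1+BVT. Of 11592 genes measured on all arrays, 15.4% had that order. The HSD1+BVT array was the highest for 26 of the 30 genes, against 40.2% of all genes, and the HSD1 array the lowest for 23, against 26.3%. The 3 comparisons share arrays, so a low HSD1 value enters both ratios that hold it.

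Other genes of sterol and isoprenoid metabolism had medians nearer to that of all genes. This list held 54 genes of side branches, uptake, efflux, sterol breakdown and electron supply, of which 49 had a probe. Against HSD1, 48 were measured in HSD1+BVT, with a median ratio of 0.08, and 2 were at least 1.5-fold lower. These were exporters of cholesterol: Abcg1 had levels of 0.10, -0.11 and -1.48 and a ratio of -1.37 to HSD1, and Abca1 had levels of -2.80, -3.07 and -3.72 and a ratio of -0.66.

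Against Control, HSD1+BVT gave 47 measured genes of this list a median of 0.02, with Abcg1 lowest at -1.58 and Fntb, a subunit of protein farnesyltransferase, highest at 0.81. With the vector alone the median was 0.01 and Fntb was highest at 1.05, 2.06-fold above Control. Cyp7b1, an oxysterol hydroxylase, was lowest at -0.60.

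SREBP factors also drive genes of fatty acid synthesis. Of 18 listed genes 17 were measured, and HSD1+BVT against HSD1 gave a median of 0.24 with 11 above 0 and 6 below. Scd, the stearoyl-CoA desaturase, had levels of -0.03 (Control), -0.61 (HSD1) and 0.52 (HSD1+BVT), the same order as most sterol genes, and stood 2.18-fold above HSD1. Fasn, the fatty acid synthase, had a ratio of 0.26, and Thrsp, a lipogenic regulator, was lowest at -0.53. With the vector alone the median was -0.02, with Thrsp highest at 0.85 and Scd lowest at -0.58. Against Control, HSD1+BVT gave a median of 0.19, with the acetyl-CoA carboxylase gene Acacb highest at 0.82 and the acyltransferase gene Gpam lowest at -0.49.

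**Figure D5:**
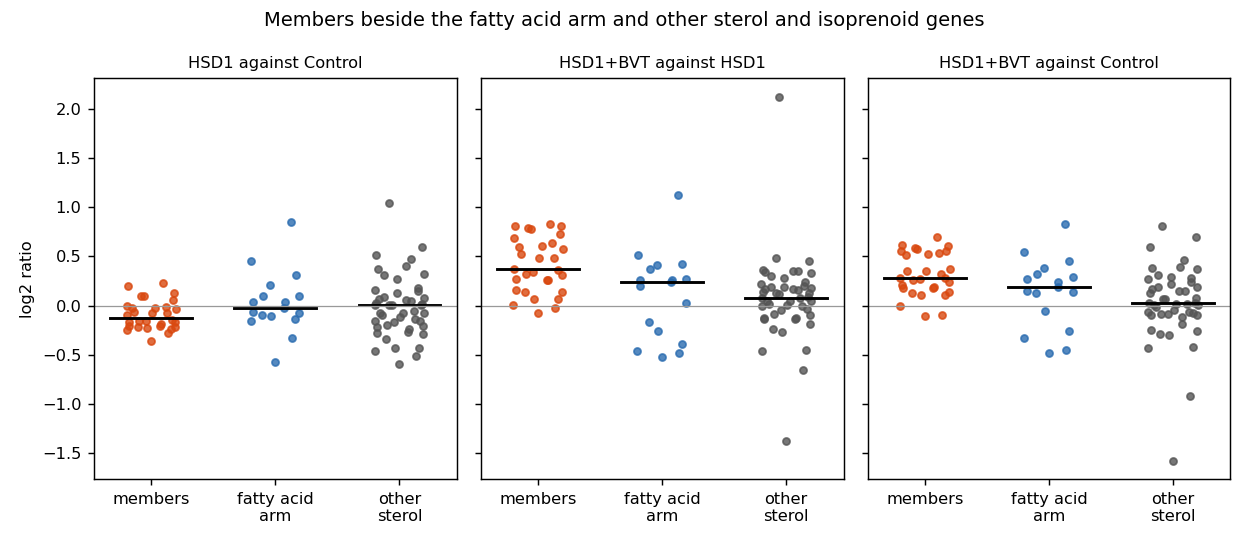
Points are log2 ratios of single genes in 3 comparisons, for the 30 sterol genes, the fatty acid arm and the other sterol and isoprenoid genes, and lines are medians. In the middle panel the medians are 0.37, 0.24 and 0.08, and Scd lies at 1.13 and Abcg1 at -1.37.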

How the data were processed

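Per the file headers and the labels, total RNA of 3 pools of neonatal rat ventricular cardiomyocytes was read on 1-colour Agilent arrays and extracted with Agilent Feature Extraction 11.0.1.1. The authors deposited linear intensity for each spot: the background-subtracted processed signal, its error, and the median brightness of spot and local background. The authors also deposited log2 values for 30423 probes; their columns share the same value to within 0.01 at 88.7% of ranks, as quantile normalization gives, but no method is named in the sources used here. These values correlated with the log2 processed signal at r = 1.00 across probes, all 3 columns had a median of 6.69, and no gene was centred.

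Control spots and spots marked as outliers (311 to 409 per array) were left out, spots of a probe were averaged, and no spot was saturated. Of 30367 probes, 17997 matched 1 gene through RefSeq (GRCr8); the array was annotated on an older build, so no gene coordinates are given. Genes had to be well above background on both arrays compared. The single-spot SD comes from 1241 probes with at least 8 spots per array. The number of arrays limits the precision. Alternatives were quantile normalization, cyclic loess, normexp with an offset of 50 (limma 3.58.1, R 4.3.3), centring on all genes, the authors' values, no filter on dim probes, the mean over probes and 2-fold in place of 1.5-fold. The rest was computed with Python 3.11.15. The gene and probe steps were tested on simulated data.

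All 30 sterol genes are named, and from the other lists each gene past 2-fold or else the highest and lowest; Abca1 and Fasn were added after their values were seen. Some genes of the other lists are not reported here. The genes and lists were chosen with earlier results of these data known.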

Additional observations from a re-analysis of the deposited data

How the results depend on the processing

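No paired analysis was possible because each group holds 1 array. Over the 7 alternatives to the scaling, background, filter or probe choice, the median ratio of the 30 genes stayed between 0.32 and 0.37 for HSD1+BVT against HSD1, between -0.18 and -0.11 for HSD1 against Control, and between 0.21 and 0.28 for HSD1+BVT against Control. For the last it was 0.21 with quantile normalization and 0.21 in the authors' deposited values. The order with HSD1 lowest and HSD1+BVT highest held for 20 or 21 of 30 genes in the 5 settings run for it. Genes above 0 numbered 25 to 28 against HSD1 and 26 or 27 for HSD1+BVT against Control, and 6 to 8 for HSD1 against Control. Against HSD1 the sign turned with normexp for Mvk (-0.0684), Ggps1 (-0.06) and Soat1 (-0.214), and for Fdft1 with quantile normalization (-0.0928), cyclic loess (-0.0437) and the authors' values (-0.0867). With normexp it also turned for Mvk (0.0579) and Ggps1 (0.0079) in HSD1 against Control, and for Mvk (-0.0106) in HSD1+BVT against Control. Genes at least 1.5-fold higher than HSD1 numbered 7 to 10, and than Control 1 to 5; it was 1 with quantile normalization, cyclic loess, the authors' values and centring on all genes. At 2-fold both counts were 0.

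The median of the other sterol and isoprenoid genes for HSD1 against Control turned to -0.0374 with quantile normalization, -0.0284 with cyclic loess, -0.0354 in the authors' values and -0.0483 with centring. For HSD1+BVT against Control it turned to -0.0467, -0.0247, -0.0447 and -0.0266 in the same order and to -0.0336 with normexp. For the fatty acid arm, HSD1 against Control gave -0.0994 with quantile normalization, -0.0901 with cyclic loess, -0.099 in the authors' values, 0.0451 with normexp and 0.0143 over all probes. HSD1+BVT gave that arm 0.0897 against Control with quantile normalization, 0.0864 in the authors' values and 0.0912 with normexp, and 0.095 against HSD1 with normexp. The cause was not tested.

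The normexp setting as planned was not usable: 4 spots of the HSD1 array have local backgrounds of up to 337615, and the fitted background mean was -1144. With those 4 set to the array's median, a repair chosen after seeing the data, it was 25.4. That setting moved the median of all genes for HSD1+BVT against HSD1 to -0.09, against which the sterol median of 0.32 lay 0.41 higher. The motif counts were the same in windows of 300 bases, and the background of measured genes for them was added after seeing the data. Dim probes such as those of Mvk, Nsdhl and Soat1 limit what signal over background can show.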
